A study of Mus musculus with 8 samples.

Results

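The 9 genes described here encode the receptors for retinoic acid, its binding proteins inside the cell and an enzyme that breaks it down. They were chosen by name, as rows of the deposited table whose gene symbol equals Rara, Rarb, Rarg, Rxra, Rxrb, Rxrg, Crabp1, Crabp2 or Cyp26b1, and each name matched 1 of its 38172 rows. The names were picked with earlier results of these data known. The study measured polyadenylated RNA of haematopoietic stem cells (HSCs) of wild-type C57BL/6 mice at 4 months (young) and at 24 months (old). The cells were sorted fresh from bone marrow as SP-KSL-CD150+, which means dye-excluding side population cells that carry Kit, Sca-1 and CD150 and lack lineage markers. Each age had 2 biological replicates, numbered 13 and 14, with 2 technical libraries each, so n = 2 per age. The sources used here do not give the number or sex of the animals behind a replicate, so a p-value covers only the spread among these samples, and fewer cells of a type cannot be told apart from less RNA per cell.

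Retinoic acid is made from vitamin A (retinol), which dehydrogenases oxidise first to retinaldehyde and then to the acid. In the nucleus it binds the retinoic acid receptors (RARs), which sit on DNA as pairs with retinoid X receptors (RXRs) at direct repeats of a short motif and exchange corepressors for coactivators when the ligand binds. Crabp1 and Crabp2 carry the acid through the cytoplasm, and the Cyp26 enzymes hydroxylate it. In mouse bone marrow, retinoic acid signalling is known to help hold HSCs in a dormant state, Rarg is known to be needed to keep their number, and Cyp26b1 and Rarb are known to mark the most dormant of them.

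Old HSCs had more RNA of Cyp26b1 and Rarb than young HSCs. The other 4 tested genes, among them Rarg, did not pass the test, and Rxrg, Crabp1 and Crabp2 were at or close to 0 at both ages. Of the 9 genes 6 passed the filter on low values, which asked for a scaled value of 10 or more in 2 or more of the 4 replicates. A scaled value is the authors' read count of a gene multiplied by 1 factor per library and rounded. In limma, with p adjusted after Benjamini and Hochberg and a threshold of 0.05, 2 of the 6 rose, against 2.01% of the 18318 genes tested, and 0 fell, against 0.54%. At an unadjusted p under 0.05, 3 of the 6 had a fitted change above 0 and 0 had one below 0, both in limma and in limma-voom. Over all genes tested those shares were 8.97% above 0 and 5.08% below 0 in limma, and 8.02% and 5.25% in limma-voom. The median log2 fold change was 0.45 over the 6 genes and 0.04 over all genes tested. Because the genes were picked with earlier results of these data known, these counts and medians are a description and no test of the set.

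**Figure D1:**
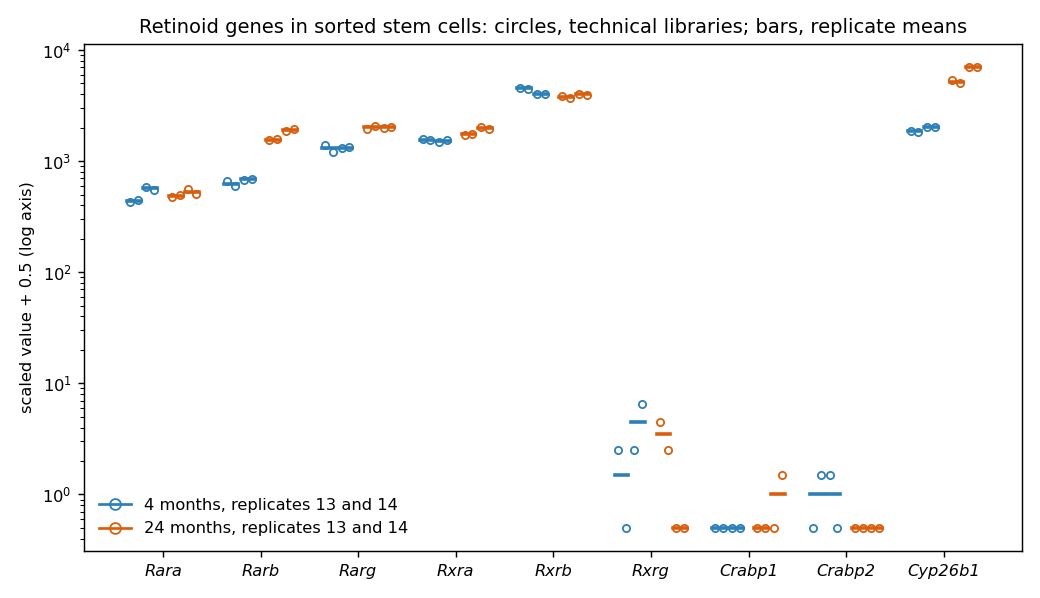
Scaled values (plus 0.5, log axis) of the 9 genes in all 8 libraries, with young HSCs in blue and old HSCs in orange. Circles are technical libraries and bars are the means of biological replicates 13 (left) and 14 (right) of each age. Cyp26b1 and Rarb lie apart between the ages by far more than their technical pairs differ, and Rxrg, Crabp1 and Crabp2 lie at 6 or less.

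The start regions of the genes are shown because Rarb is itself known as a target of its own receptor. RefSeq windows of 300 bases in the GRCm38.p6 build, from 250 bases before to 50 after a gene's start, were found for 8 of the 9 genes (15 windows were searched), and Crabp2 had no entry. Both strands were searched for the receptor core motif AGGTCA and for direct repeats spaced by 1, 2 or 5 bases, in which each copy could be AGGTCA itself or its variant AGTTCA, or the variant GGGTCA, or else GGTTCA. The Rarb window holds a direct repeat spaced by 5, from 53 to 37 bases before the start, and it was the only member with a direct repeat of any of these spacings. The spacing of 5 was found in 32 of all 32851 RefSeq windows of this length (0.0974%), the spacing of 2 in 0.268% and the spacing of 1 in 0.222%. The single motif AGGTCA, which overlaps the repeats where both occur, was found in 16.3% of windows, and among the members in windows of Rara, Rarg, Rxra and Rxrg. In the Rarb window (chr14:16575427-16575726, minus strand) capitals mark the repeat, and the Cyp26b1 window (chr6:84593761-84594060, minus strand), from the gene with the larger rise, is all in lower case because none of the motifs is in it.
Rarb: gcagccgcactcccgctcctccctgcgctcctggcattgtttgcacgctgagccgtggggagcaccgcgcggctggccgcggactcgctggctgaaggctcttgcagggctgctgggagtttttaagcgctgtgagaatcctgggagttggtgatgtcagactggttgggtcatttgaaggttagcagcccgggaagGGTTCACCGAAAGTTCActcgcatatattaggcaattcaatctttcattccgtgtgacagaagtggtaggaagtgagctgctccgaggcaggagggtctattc
Cyp26b1: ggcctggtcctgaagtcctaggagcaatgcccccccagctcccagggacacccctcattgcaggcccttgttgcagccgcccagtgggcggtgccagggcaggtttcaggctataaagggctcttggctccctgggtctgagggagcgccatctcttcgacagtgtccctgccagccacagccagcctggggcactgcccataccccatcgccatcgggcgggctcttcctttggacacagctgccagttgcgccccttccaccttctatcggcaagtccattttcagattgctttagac
Among 100 other retinoid pathway symbols, 74 of which had a window, Cyp26a1, the paralog of Cyp26b1, also held a direct repeat spaced by 5, on the opposite strand from 32 to 16 bases before its start (chr19:37697776-37697792). The repeats of both genes, with the core motifs in capitals and the spacer in lower case, read as follows.
Rarb repeat: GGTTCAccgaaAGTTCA
Cyp26a1 repeat: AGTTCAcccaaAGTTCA
A match is a description of letters and not a measured binding site. The lack of a match covers only the bases searched. For Cyp26b1 that was 1 window of 300 bases, while its row lists 2 RefSeq transcripts, and sites elsewhere were not searched. Cyp26a1 was close to 0 in these cells, with scaled values of 6.5 and 2.5 (young) against 7 and 3 (old). Whether the repeat of either gene bears on its RNA level was not tested.

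Of the 3 RARs, nuclear receptors that bind retinoic acid, Rarb showed the largest difference. Its row in the mm9 build spans chromosome 14 from 17263355 to 17407724 on the minus strand and lists 1 RefSeq transcript. The technical libraries of Rarb held 662 and 591 in young 13, 674 and 693 in young 14, 1550 and 1578 in old 13, and 1864 and 1947 in old 14. All 4 old libraries were above all 4 young libraries. By replicate means, both old values were above both young ones in 24.7% of all genes tested. Averaged over technical pairs, Rarb had 655 ± 40.3 in young and 1735 ± 241.5 in old HSCs (SD, n = 2 for each) and rose by a fold of 2.64 with a 95% interval of 2.01 to 3.46 (log2 fold change 1.40, SE 0.17, limma adjusted p = 0.0103). It had the rank 122 by p-value among the 18318 genes tested. The call was lost without young 13 (adjusted p = 0.0521), without old 13 (adjusted p = 0.124) and without old 14 (adjusted p = 0.194), each in limma, and the log2 fold change stayed between 1.26 and 1.54 with any 1 replicate left out.

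Rarg, the RAR that mouse studies tie to HSC maintenance, had higher values in old HSCs and did not pass the test. Its row spans chromosome 15 from 102065372 to 102087914 and joins 2 RefSeq transcripts, so the files do not separate its isoforms. Its libraries held 1390 and 1219 in young 13, 1299 and 1347 in young 14, 1964 and 2069 in old 13, and 1989 and 2046 in old 14. Every old library was above every young one (by replicate means, 24.7% of all genes tested had this order). The replicate means of each age lay close together, at 1304.5 and 1323 (young) against 2016.5 and 2017.5 (old). The fitted fold was 1.54 with a 95% interval of 1.23 to 1.92 (log2 fold change 0.62, SE 0.14) and did not pass at limma adjusted p = 0.0768.

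Rara, the RAR known from leukaemia fusions, had the lowest level per length of the tested genes and no difference beyond its spread. Its replicates were 439.5 and 569.5 (young) against 484 and 529.5 (old), so the old values lay inside the young range. Its 4 RefSeq transcripts share a row on chromosome 11 from 98799011 to 98836256. The fitted fold was 1.01 with a 95% interval of 0.733 to 1.40 (limma adjusted p = 0.985), and its sign changed with the scaling. In the authors' deposited table, Rarb (log2 fold change 1.37, FDR 3.10e-24), Rarg (0.59, FDR 3.16e-05) and Cyp26b1 (1.62, FDR 3.60e-36) are marked as higher at 24 months, a mark carried by 6.0% of the 22284 genes with an FDR there, and Rara is not marked (-0.02, FDR 1). Which libraries counted as replicates in that table is not given in the sources used here.

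**Figure D2:**
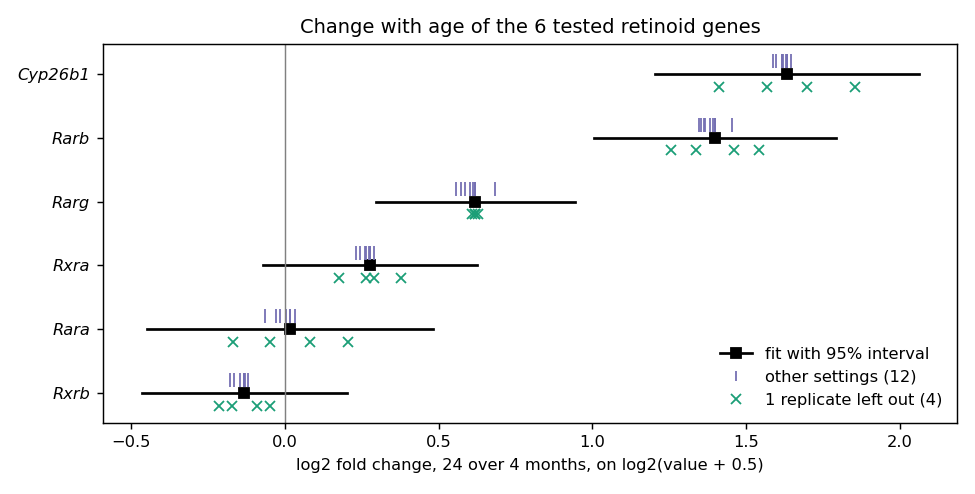
Log2 fold change of old over young HSCs on the log2(value + 0.5) scale for the 6 tested genes (x axis). Squares with lines are the fit and its 95% interval, ticks are the 12 other settings and crosses are the 4 fits with 1 replicate left out. Cyp26b1 and Rarb keep values above 1.2 in all of them, and Rara has ticks and crosses on both sides of 0.

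The make-up and the sum of the RAR family were set side by side between the ages, as a description. FPKM, the authors' scaled value per kilobase of gene length and per 50000000, allows levels of different genes to be compared. The summed FPKM of the 3 RARs was 14.8 and 15.98 in the young and 26.3 and 29.0 in the old replicates. Rarb made up 30.6% and 30.9% of that sum in young HSCs and 43.1% and 47.6% in old HSCs. The share of Rarg was 55.0% and 51.8% (young) against 48.0% and 43.6% (old), and that of Rara was 14.4% and 17.3% against 8.95% and 8.88%. For each of the 3 shares the ages did not overlap, and no test was run on the shares or the sums. The shares are parts of the same sum, so they do not move separately, and a lower share is not a lower level. The FPKM of Rara was 2.13 and 2.77 (young) against 2.35 and 2.57 (old). That of Rarg was 8.16 and 8.27 (young) against 12.6 and 12.6 (old). An exact permutation test of 2 against 2 cannot go below p = 0.33. The level of Rarb per length was 0.555 and 0.598 times that of Rarg in the young replicates, and 0.897 and 1.09 times in the old ones, so Rarg was the leading RAR in young HSCs and neither led in both old replicates.

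The RXRs, which pair with the RARs and with many other nuclear receptors, were the more abundant receptor family and showed no difference that passed. Rxrb carried most of it, with an FPKM of 32.7 and 29.2 (young) against 27.4 and 29.0 (old). Its scaled values were 4507.5 and 4025 (young) against 3779 and 3996.5 (old). The old replicate means were below the young ones by a small margin, while single technical libraries overlapped. The fitted fold of Rxrb was 0.912 with a 95% interval of 0.724 to 1.15 (limma adjusted p = 0.769). Rxra, the RXR that myeloid cells are known to use, was 1552.5 and 1522.5 (young) against 1736.5 and 1997.5 (old), a fitted fold of 1.21 with a 95% interval of 0.952 to 1.54 (limma adjusted p = 0.493). The summed FPKM of the RXRs was 38.6 and 35.0 (young) against 34.0 and 36.6 (old), so the ages overlapped. The share of Rxra in it was 15.3% and 16.5% (young) against 19.4% and 20.8% (old). The row of Rxrb lies on chromosome 17 from 34168758 to 34175348 and that of Rxra on chromosome 2 from 27532722 to 27618839.

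**Figure D3:**
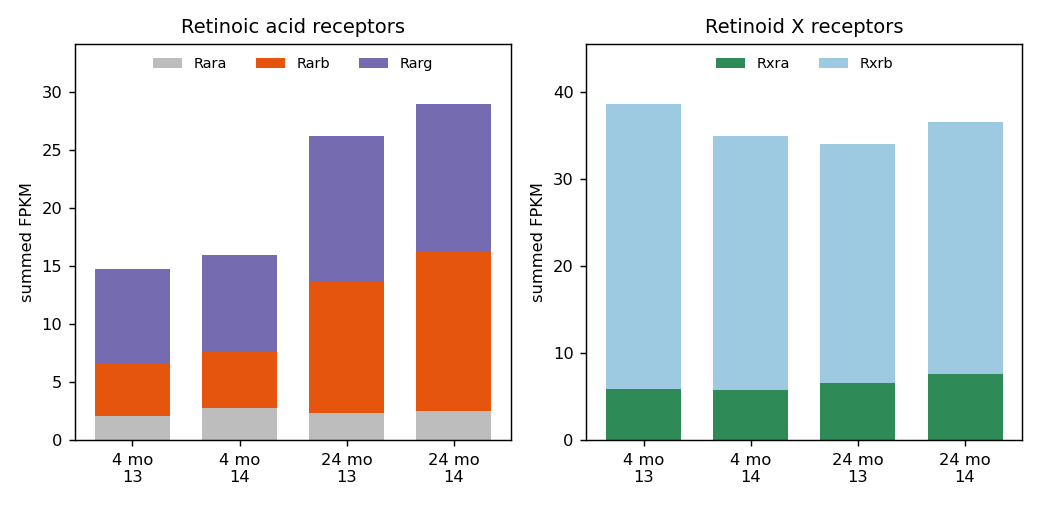
Summed FPKM of the retinoic acid receptors (left) and of Rxra and Rxrb (right) in the 4 biological replicates, stacked by gene, with both axes from 0. The RAR sum goes from 14.8 and 15.98 in young to 26.3 and 29.0 in old HSCs, with Rara near 2.5 at both ages, while the RXR columns overlap between ages; Rxrg, at most 0.034, is not drawn.

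Rxrg, the RXR of muscle and brain, was close to 0, with scaled values of 2, 0, 2 and 6 in the young libraries and 4, 2, 0 and 0 in the old libraries. A value of 0 still allows up to 3 reads, which corresponds to a scaled value of 1.85 to 5.52 depending on the library, so no difference was detectable at this depth. Crabp2, which hands retinoic acid to the RARs, held a value of 1 in 2 young libraries and 0 in the other 6. Crabp1, the binding protein linked to retinoic acid breakdown, held 1 in 1 old library and 0 in the other 7. None of these 3 genes passed the filter, and no fold change is given for them. Fabp5, a fatty acid-binding protein that can also deliver retinoic acid and the most abundant uptake gene per length in the mean over all 4 replicates, had 851 and 1082.5 (young) against 739.5 and 1108 (old).

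Cyp26b1, the hydroxylase that clears retinoic acid, showed the largest rise of the 6 tested genes. Its libraries held 1876 and 1837 in young 13, 2035 and 2026 in young 14, 5325 and 4998 in old 13, and 7029 and 7009 in old 14. Every old library was above every young one (by replicate means, 24.7% of all genes tested had this order), and old 14 was above old 13. As replicate means Cyp26b1 had 1944 ± 123 in young and 6090 ± 1313 in old HSCs (SD, n = 2 for each) and rose by a fold of 3.10 with a 95% interval of 2.30 to 4.17 (log2 fold change 1.63, SE 0.18, limma adjusted p = 0.00802). The limma call was lost without old 13 (adjusted p = 0.124) and without old 14 (adjusted p = 0.158), and was kept without young 13 (adjusted p = 0.0378) or young 14 (adjusted p = 0.0329). Its row lies on chromosome 6 from 84521409 to 84543902 on the minus strand. Per length, Cyp26b1 stood at 0.517 and 0.525 times the sum of the 3 RARs in young HSCs and at 0.812 and 1.001 times in old HSCs. Its family members Cyp26a1 and Cyp26c1 did not pass the filter, with values of at most 7.

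Ordered by FPKM, young HSCs had Rxrb first, at a mean of 30.9, then Rarg at 8.21, Cyp26b1 at 8.03, Rxra at 5.85, Rarb at 4.74 and Rara at 2.45. Rarg and Cyp26b1 did not differ beyond their spread in young HSCs, and the other neighbours in that order did not overlap. Old HSCs had Rxrb at 28.2, Cyp26b1 at 25.2, Rarg at 12.6, Rarb at 12.5, Rxra at 7.10 and Rara at 2.46. In old HSCs Rxrb overlapped Cyp26b1 and Rarg overlapped Rarb. The rows of the 9 genes overlap no other row of the deposited table. Over the 6 tested genes, both old replicates were above both young ones in 4 (24.7% of all tested genes), below them in 1 (17.4%), and the ages overlapped in 1.

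The genes whose profile over the 4 replicates came closest to that of Rarb were Cyp4b1, Hoxb7, Zfp345, Itgb3 and Mt1. Closeness was the Euclidean distance between log2(value + 0.5) profiles, each centred on its own mean, and these 5 had distances of 0.06 to 0.11. Itgb3, the beta 3 integrin of platelets, had 5949 and 6733 (young) against 15185 and 17425.5 (old). Itgb3, Cyp4b1 and Mt1 passed in limma. Hoxb7, at 31 and 33.5 (young) against 73.5 and 92.5 (old), did not pass (limma adjusted p = 0.0800). Zfp345, near the filter at 5 and 5.5 (young) against 12.5 and 15.5 (old), did not pass either (limma adjusted p = 0.229). Cyp26b1 had the rank 51 in closeness to Rarb, at 0.26, while Rarg had the rank 1006. The genes closest to Cyp26b1 were Enpp5, the unnamed model HAG_039773, Zfp503, Sfrp1 and Calml4, at 0.05 to 0.09, and Rarb had the rank 41. With 4 samples such profiles mostly reflect the size of the change with age, and no test was run on them.

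Among enzymes of retinoic acid synthesis, a retinol dehydrogenase and a retinaldehyde dehydrogenase rose in old HSCs. Of 15 tested retinol and retinaldehyde enzymes 2 rose and 1 fell, against 2.01% and 0.54% of all genes tested, with a median log2 fold change of 0.04. At an unadjusted p under 0.05 in limma were 4 of them, against 14.0% of all genes tested. Rdh10, the retinol dehydrogenase that starts synthesis in the mouse embryo, was 716.5 and 754 (young) against 1521 and 1838.5 (old), a fitted fold of 2.27 (limma adjusted p = 0.0165). Aldh1a1, which oxidises retinaldehyde to the acid and was the most abundant gene of the list per length, was 9629.5 and 10662 (young) against 19639.5 and 25742 (old), a fitted fold of 2.22 (limma adjusted p = 0.0290). Aldh1a7, its close paralog, fell from 257.5 and 262.5 to 103 and 68.5 (limma adjusted p = 0.0309), and reads of so similar a pair may be split between their rows in ways the files do not show. Aldh1a2, known as the main retinaldehyde dehydrogenase of the embryo, had values between 2 and 10.5, and Aldh1a3 between 6 and 14.5. Dhrs3, which turns retinaldehyde back to retinol, was 526 and 712.5 (young) against 987 and 1364.5 (old) and did not pass (limma adjusted p = 0.108). With any 1 replicate left out, with no filter on low values or with no trend in the prior, 0 genes of this list passed in limma.

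Uptake and storage genes gave no call. Of 6 tested genes 0 passed in limma or limma-voom, and the median log2 fold change was -0.04. At an unadjusted p under 0.05 in limma was 1 gene, against 14.0% of all genes tested. It was Lrp1, an endocytic lipoprotein receptor, at 598.5 and 916.5 (young) against 388 and 354 (old), a fitted fold of 0.501 (limma adjusted p = 0.0935). Stra6, the retinol receptor of the cell surface, and Lrat, which esterifies retinol for storage, had values of at most 2 and 4.5. Of the breakdown genes other than Cyp26b1, only Cyp2s1, a P450 known to act on retinoic acid, passed the filter, at 9 and 6 (young) against 12 and 22 (old), limma adjusted p = 0.397.

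Of 18 tested genes known as targets of retinoic acid in other cells, 1 rose and 0 fell, against 2.01% and 0.54% of all genes tested. At an unadjusted p under 0.05 in limma were 6 of them, against 14.0% of all genes tested, and the median log2 fold change was -0.06. Cd38, a surface enzyme that consumes NAD and a classic retinoic acid target in myeloid cells, rose from 421 and 556.5 to 1393.5 and 2208.5, a fitted fold of 3.62 (limma adjusted p = 0.0167). This call was lost with no filter on low values, with no trend in the prior, without old 13 and without old 14, where 0 genes of the list passed in limma. Tgm2, tissue transglutaminase and the most abundant target per length in the mean over all replicates, was 18303 and 15303 (young) against 30495.5 and 31802.5 (old), limma adjusted p = 0.0542. Rarres1, named for its response to a retinoid, was 8 and 11 (young) against 30.5 and 54 (old), limma adjusted p = 0.0687. Hoxb5 was 521 and 393.5 against 711.5 and 767 (limma adjusted p = 0.148), while Hoxb4 was 821 and 572.5 against 842 and 618.5, with overlapping ages. Of the 6 targets at an unadjusted p under 0.05, which also include Dhrs3, the 1 with lower values in old HSCs was Itga4, the alpha 4 integrin, at 18542 and 22030 (young) against 14772.5 and 14515.5 (old), limma adjusted p = 0.265. Egr1, an immediate early gene of this list, stood apart in young 14, at 33356.5 against 2606.5 in young 13 and 2467.5 and 7422 in old HSCs.

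**Figure D4:**
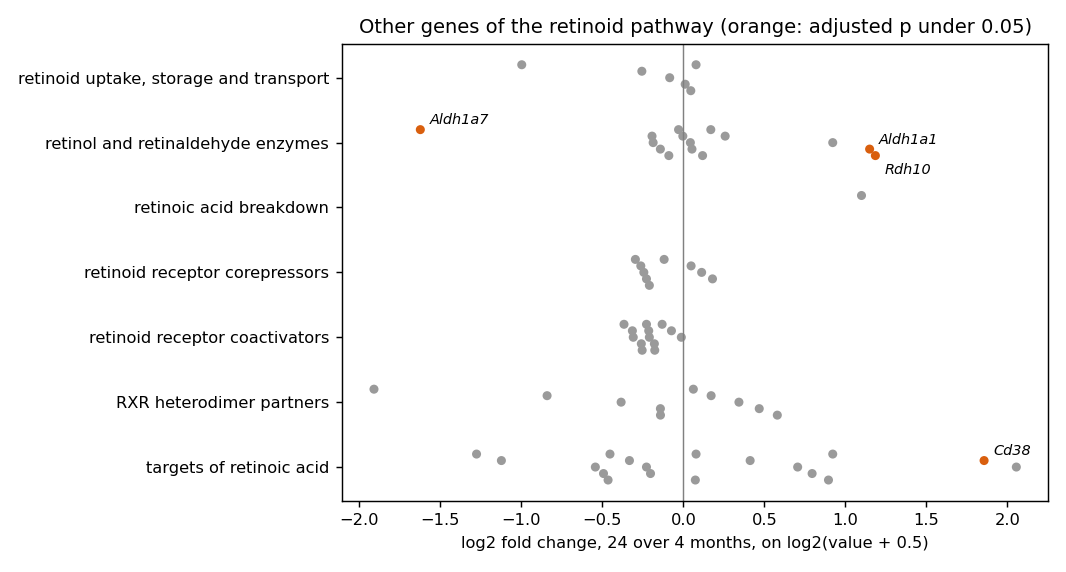
Log2 fold change of old over young HSCs on the log2(value + 0.5) scale for the tested genes of 7 retinoid pathway lists, 1 point a gene. Orange points passed at an adjusted p under 0.05 and are Rdh10, Aldh1a1 and Aldh1a7 among the enzymes and Cd38 among the targets.

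Receptor partners and cofactors gave 0 calls in limma or limma-voom. Of 10 tested RXR partners 2 had an unadjusted p under 0.05 in limma, against 14.0% of all genes tested. The vitamin D receptor Vdr was 2855.5 and 2690.5 (young) against 3852.5 and 3818 (old), limma adjusted p = 0.160. Nr1h2, an oxysterol receptor and the most abundant partner per length in the mean over all replicates, was 3571.5 and 3233 (young) against 3349 and 2834 (old). Nr4a1, an orphan receptor and immediate early gene, stood apart in young 14, with 11306.5, while the other replicates had 383 to 850. The 9 corepressors had a median log2 fold change of -0.21 and the 13 coactivators of -0.21, with 0 of either at an unadjusted p under 0.05 in limma. Fitted above 0 were 3 of the 9 corepressors and 0 of the 13 coactivators. Hdac3, the deacetylase of the corepressor complex, was 4236 and 4050 (young) against 4325.5 and 5089 (old), and Prmt1, an arginine methyltransferase that acts as coactivator, was 6549.5 and 6053.5 against 5757.5 and 6218. Over all pathway lists together 3 of 69 tested genes rose (background 2.01%) and 1 fell (background 0.54%), with a median log2 fold change of -0.13. The lists too were picked with earlier results of these data known, so these counts are a description.

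The libraries carried the RNA of the sorted cell type. Kit was 56382 and 54958.5 (young) against 57824 and 63949.5 (old). All 10 HSC markers passed the filter and were fitted above 0, with a median log2 fold change of 0.41. Of them 2 rose, and 5 had an unadjusted p under 0.05 in limma. Slamf1, the gene of CD150, was at 1597 and 1735.5 against 3175 and 3083. Ly6a, the gene of Sca-1, was at 2621 and 2573.5 against 3519 and 5566. Over all genes tested, 2.01% rose, 0.54% fell and 14.0% had an unadjusted p under 0.05 in limma. Summed scaled values lay between 40700000 and 44200000 per library, which the spacing of the values puts at 22300000 to 66500000 reads. Of the marker lists of other cells, 3 of 10 stroma genes fell, with sums of 7195 and 7841 (young) against 3314 and 3098 (old), and 4 of 9 erythroid rows fell. At an unadjusted p under 0.05 in limma were 5 of these stroma genes and 4 of these erythroid rows. Kdr and Cldn5 rose among 8 endothelial genes, of which 4 were fitted above 0, with a median log2 fold change of 0.02. An unadjusted p under 0.05 in limma was found for 4 of the 8 endothelial genes. The endothelial sums were 8267 and 8889 (young) against 10527 and 11030 (old), with the endothelial cadherin Cdh5 at 7 to 19. Klrb1c, an NK cell receptor, rose from 372.5 and 470 to 2495 and 4036, with the T cell genes Cd3d, Cd3e and Cd3g at 1 to 28. Of the 4 tested T and NK cell genes 1 rose and 2 were fitted above 0, with a median log2 fold change of -0.38. An unadjusted p under 0.05 in limma was found for 3 of these 4 genes, so the list did not move in 1 direction. Of 7 tested megakaryocyte genes 5 were fitted above 0 (median 0.12), and of 7 tested B cell genes 2 (median -0.73). In these 2 lists 0 genes passed in limma, and 2 megakaryocyte genes and 1 B cell gene had an unadjusted p under 0.05. Neutrophil markers, with 0 of 11 passing in limma and 5 at an unadjusted p under 0.05, summed to 6175 and 18920 (young) against 1164 and 7230 (old). Monocyte, macrophage and dendritic markers, with 0 of 10 tested genes passing in limma and 3 at an unadjusted p under 0.05 (C1qa, C1qb and C1qc, lower in old HSCs), summed to 9529 and 24371.5 (young) against 9307 and 17047.5 (old), with young 14 the highest in both myeloid lists. Of the tested neutrophil, monocyte, macrophage and dendritic, erythroid and stroma markers, 0 were fitted above 0. No marker gene was at 0 in every replicate. The part of other cells, or of the make-up of the sorted HSCs, in the changes of Rarb and Cyp26b1 was not tested.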

How the data were processed

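PolyA RNA of the sorted cells went into TruSeq libraries, per the labels' protocols. The submitters' processing notes name mm9 as build and list DESeq with no version; for aligner and counter, they are not given in the sources at hand. The values the authors deposited as counts are a score, reads times 1 factor per library (0.617 to 1.84), rounded: whole numbers are skipped or doubled at a fixed spacing, and no gene held a skipped whole number up to 100. A deposited FPKM is that score per kilobase and per 50000000; it gave a whole gene length (tolerance 0.01) for all 27330 rows above 0. Gene starts were written counting from 1. The authors' log2 fold change and FDR (an adjusted p-value) were copied from the deposited table, where an FDR is given for 22284 rows.

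The values are not raw counts, so the main fit was not a count test. Limma-voom, which is made for counts, was run as an alternative on the same averaged scaled values, which do not meet that assumption. Technical pairs were averaged, and log2(value + 0.5) of 4 replicates was fitted over 18318 genes by limma 3.58.1 under R 4.3.3, using age as its term, a trended prior, two-sided tests and Benjamini-Hochberg adjustment; the fit was tested on simulated data. Alternatives changed the pseudocount (1, 5), filter, scaling, model, prior, technical libraries, unit, replicate block and replicates used. The members and the 7 pathway lists were chosen with earlier results of these data known. Named genes were the members, list genes that passed, each list's most abundant gene, and the 5 closest profiles to Rarb and Cyp26b1; other named genes (Dhrs3, Cyp26a1, Rarres1, Vdr, Hoxb4, Hoxb5, Egr1, Nr4a1, Itga4, Lrp1, Stra6, Lrat, Aldh1a2, Aldh1a3 and markers) were chosen after their values were seen. Fold changes understate low genes.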

Additional observations from a re-analysis of the deposited data

How the results depend on the processing

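With n = 2 per age, both calls among the retinoid genes rest on few samples. With no filter on low values limma called 0 genes in all (2943 at an unadjusted p under 0.05, and 342 in limma-voom with the filter), 0 rose and 0 fell, 0 members rose, Rarb had 1.40 (adjusted p = 0.0909) and Cyp26b1 1.63 (0.103) as log2 fold changes, and the enzyme and target lists gave 0. A mean FPKM of at least 1 gave 302 genes, 237 that rose and 65 that fell, with both member calls kept. With no trend in the prior 56 genes fell, Cyp26b1 had 1.63 (adjusted p = 0.0506), 1 member rose and the enzyme and target lists gave 0. The lower-numbered technical libraries gave 302 genes, of which 55 fell, the higher-numbered ones 52 that fell and FPKM values 60. The share of Rara in old RAR FPKM was 9.20% and 8.63% in the lower- and higher-numbered libraries. Rara turned to -0.029 with median-ratio factors, -0.064 with quantile normalization and -0.017 with limma-voom.

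The replicate block gave 2766 genes, 1698 that rose and 1068 that fell, Rarg then passed at 0.62 (adjusted p = 0.0023), and the uptake, partner and target lists gave 1, 4 and 8 calls. The labels do not say that equal numbers mark a shared source; the 13 minus 14 differences of the ages correlated across genes at r = 0.544.

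With 1 replicate left out, the lone replicate of its age is assumed to vary like the others, and limma called 0 genes without old 13 (3669 at an unadjusted p under 0.05) or old 14 (1933), 274 without young 13 and 187 without young 14. Genes that rose ranged from 0 to 206 and genes that fell from 0 to 68. Members that rose ranged from 0 to 2, Rarb from 1.26 to 1.54, Cyp26b1 from 1.41 to 1.85 and Rara from -0.17 to 0.20. The enzyme list gave 0, and the partner and target lists each 0 to 2. The cause of these differences was not tested. Rarb passed in 11 and Cyp26b1 in 10 of the 12 settings that kept all replicates, and both stayed above 0 in all 16. Depth limits Rxrg, Crabp1 and Crabp2.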
